A study of Homo sapiens with 12 samples.

Results

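The spindle checkpoint and chromosomal passenger genes, 10 genes of the machinery that checks chromosome attachment in mitosis, were followed across 4 stable lines of SNU638, an established cell line from human gastric cancer. They are the 4 subunits of the chromosomal passenger complex (AURKB, INCENP, BIRC5 and CDCA8), the shugoshin SGO1, and 5 genes of the spindle assembly checkpoint (BUB1, BUB1B, BUB3, MAD2L1 and TTK). They were taken by gene symbol, make up 10 of the 17303 genes in the deposited table, and all 10 passed the expression filter that left 12868 genes for testing. SNU638 cells were infected with lentivirus and selected with puromycin. The control line carried a control hairpin and has the genotype wt in the labels, and the other 3 lines each carried a different short hairpin RNA against SKA2, called hairpin 1, hairpin 2 and hairpin 3 here. Each line gave 3 libraries of bulk polyadenylated RNA, 12 in all, and all 4 lines share the lentivirus and the puromycin selection. Each hairpin is represented by 1 line, so an effect of the hairpin and a property of the line that carries it cannot be told apart. Separate cultures within a line are not stated in the labels, so each p-value here measures the spread between libraries alone, and that spread may be technical.

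The chromosomal passenger complex sits at the inner centromere, where the kinase Aurora B (AURKB), held by the scaffold INCENP and placed there by survivin (BIRC5) and borealin (CDCA8), releases microtubules that are wrongly attached. Shugoshin (SGO1) protects the cohesin that holds sister centromeres together until anaphase. The spindle assembly checkpoint is switched on at unattached kinetochores by the kinase TTK (MPS1), which brings in BUB1, BUB3 and BUBR1 (BUB1B) and leads to the loading of MAD2 (MAD2L1) onto CDC20, so that the anaphase-promoting complex stays inactive. SKA2 is a subunit of the SKA complex, which couples the kinetochore to microtubule ends. Most of these genes are transcribed late in the cell cycle, in G2 and mitosis, so in bulk RNA fewer cells in those phases and less RNA per cell cannot be told apart.

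The promoters of the genes are shown because the cell cycle genes homology region (CHR), a short element of late cell cycle promoters with the letters TTTGAA or, less often, TTCGAA, lies close to the start site of many genes of this kind. A 300-base promoter window, running from 250 bases before the annotated start to 50 after it, was found in RefSeq's table (GRCh38.p14) for 7 of the 10 genes. INCENP, CDCA8, BUB1B, MAD2L1, SGO1, BUB1 and AURKB are printed from 50 bases before the start to 50 after it, 5′ to 3′ on the gene's strand, with the CHR letters in capitals. BIRC5, BUB3 and TTK are named only.
INCENP: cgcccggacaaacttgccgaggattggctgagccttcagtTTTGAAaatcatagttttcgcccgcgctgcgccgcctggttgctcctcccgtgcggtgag
CDCA8: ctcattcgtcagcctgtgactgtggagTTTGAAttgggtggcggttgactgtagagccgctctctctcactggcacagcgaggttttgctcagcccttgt
BUB1B: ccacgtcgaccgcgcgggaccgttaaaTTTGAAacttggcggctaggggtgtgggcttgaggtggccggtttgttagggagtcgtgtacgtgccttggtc
MAD2L1: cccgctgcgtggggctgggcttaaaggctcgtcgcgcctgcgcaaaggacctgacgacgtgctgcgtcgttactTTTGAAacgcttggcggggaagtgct
SGO1: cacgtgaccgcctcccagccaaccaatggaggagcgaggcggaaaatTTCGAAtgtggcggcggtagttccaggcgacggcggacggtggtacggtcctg
BUB1: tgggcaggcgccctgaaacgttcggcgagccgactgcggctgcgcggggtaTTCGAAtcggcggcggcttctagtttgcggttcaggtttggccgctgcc
AURKB: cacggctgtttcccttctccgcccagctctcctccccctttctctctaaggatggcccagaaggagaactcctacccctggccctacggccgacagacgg
These stretches are chr11:62123961-62124060 (+), chr1:37692466-37692565 (+), chr15:40161019-40161118 (+), chr4:120066799-120066898 (-), chr3:20186157-20186256 (-), chr2:110678014-110678113 (-) and chr17:8210176-8210275 (-) in that order. With the start base as position 1 and no position 0, TTTGAA began at -10 in INCENP, -23 in CDCA8, -23 in BUB1B and 25 in MAD2L1. TTCGAA, which reads the same on both strands, began at -3 in SGO1 and 2 in BUB1. In the AURKB window used, neither form was present on either strand. The table holds 2 windows for this gene, and only the first was examined, so the absence holds for that window alone. Its printed stretch lies inside the annotated gene (8204733 to 8210600, minus strand), so this window is not that of the outermost annotated start. The CHR letters were thus in 6 of the 7 windows, against 16.4% of all 35116 windows in the table searched on both strands (15.2% hold TTTGAA and 1.4% TTCGAA). All 6 lay within 50 bases of the start, where 5.0% of all windows hold them. The CCAAT box, searched as CCAAT or ATTGG, was in 6 of the 7 windows and in 34.6% of all windows, and was not found in that of BUB1B. In CDCA8 the last base of TTTGAA is also the first of an ATTGG. These matches describe letters in a window and not the binding of a factor.

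The libraries held between 1.47e+07 and 1.67e+07 counts, and the lowest count of any of the 10 genes was 189, for SGO1 in a hairpin 2 library. SKA2 fell in every knockdown line. In CPM, which are counts relative to library size after TMM normalisation, the control libraries held 126, 119 and 117. The hairpin 1 line had 22.3 to 26 CPM, the hairpin 2 line 23.3 to 27.1 and the hairpin 3 line 24.9 to 28.0. Its log2 fold change was -2.33, -2.25 and -2.18 in turn (largest adjusted p = 8.24e-09), which left 19.9%, 21.0% and 22.1% of the control level. Among markers of cell types, the epithelial list of 6 genes summed to 2500 to 3380 CPM in the control libraries and 1020 to 1050 with hairpin 2. It summed to 2220 to 2320 CPM in the hairpin 1 line and 2000 to 2660 in the hairpin 3 line. Keratins KRT8, KRT18 and KRT19 and EPCAM made up most of it, and 2 defining genes were low in the control line (CDH1 at 4.37 CPM, CLDN4 at 0.735 CPM). Fibroblast, endothelial and leukocyte lists summed to at most 8.78, 1.26 and 26.2 CPM. The leukocyte sum was nearly all CD68, with CD3E and PTPRC at or near 0, and DCN was at or near 0. Libraries also differed in how counts followed transcript length. The slope, in log2 units per doubling of length, was -0.06, -0.24 and -0.31 in the control libraries, 0.08 to 0.10 in those of hairpin 1, 0.15 to 0.20 in those of hairpin 2, and 0.09, -0.12 and -0.16 in those of hairpin 3. The first control library and the first hairpin 3 library therefore stood apart from the others of their line.

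With hairpin 2 all 10 genes fell. The smallest fall was in INCENP, to 74.1% of the control mean, and the largest in BIRC5, to 28.0%. BUB1, MAD2L1, SGO1 and TTK came down to between 47.6% and 51.1%. In this comparison 37.8% of the 12868 tested genes were called lower and 36.6% higher, at an adjusted p under 0.05. The 3 hairpin 2 libraries lay below all 3 control libraries for 10 of the 10 genes, a separation seen in this direction for 38.8% of all tested genes. The median log2 fold change of the 10 genes was -1.02, beside -0.02 over all tested genes. The order of the 10 changes was the same with DESeq2, RLE scaling, no filter, only the groups compared and a replicate block. It was also the same in limma on log2(TPM + 1), where INCENP was at 0.15. Settings that model transcript length changed it. With the length slope in the model all 10 were called and AURKB was smaller (-1.004). BUB1 (-1.53), BUB1B (-1.18) and TTK (-1.51) were larger there, and BUB3 (-0.76) was the smallest. With length and GC offsets MAD2L1 was at -1.78. The summed epithelial markers were also lowest with hairpin 2, and their part in the fall was not tested.

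**Figure D1:**
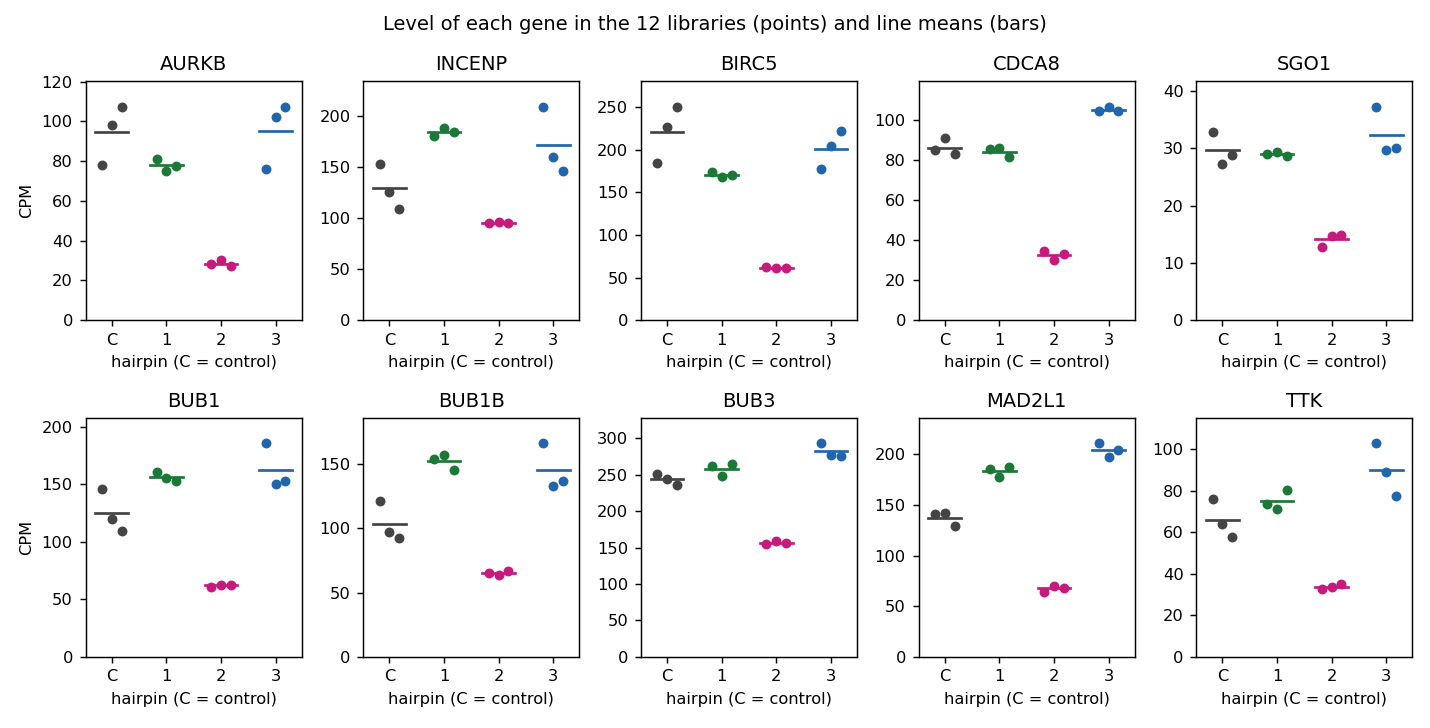
Level of each of the 10 genes in CPM after TMM scaling (vertical axes, from 0) in the control, hairpin 1, hairpin 2 and hairpin 3 lines. Bars are means over 3 libraries and points are libraries 1, 2 and 3 from left to right; in every panel the hairpin 2 points lie below all others.

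AURKB (Entrez 9212, chromosome 17, 8204733 to 8210600, minus strand, GRCh38) encodes the kinase of the passenger complex. Its level was 77.9, 98.0 and 107 CPM in the control libraries, 81.1, 75.3 and 77.4 with hairpin 1, 28.0, 30.0 and 27.1 with hairpin 2, and 76.2, 102 and 107 with hairpin 3. The hairpin 2 libraries stood clear of all others, while those of hairpin 1 and hairpin 3 overlapped the control. The log2 fold change with hairpin 2 was -1.73 ± 0.14 (SE, 3 libraries against 3, adjusted p = 6.76e-07), and with hairpins 1 and 3 it was -0.28 ± 0.13 (adjusted p = 0.0876) and 0.01 ± 0.13 (adjusted p = 0.952). AURKC, the Aurora kinase gene closest to AURKB, was named after its values were seen because it went the other way. It had only 7, 7 and 14 counts in the control libraries and 16, 27 and 24 with hairpin 2, and its log2 fold change there was 1.29 ± 0.31 (adjusted p = 0.00236).

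BIRC5 (Entrez 332, chromosome 17, 78214186 to 78225636, plus strand) encodes survivin, which brings the complex to centromeres by reading a mark on histone H3. It measured 184, 227 and 251 CPM in the control, 174, 168 and 171 with hairpin 1, 62.1, 61.5 and 61.7 with hairpin 2, and 178, 205 and 222 with hairpin 3. The hairpin 2 libraries were nearly equal to each other and far below the rest. BIRC5 fell by 1.84 ± 0.11 on the log2 scale with hairpin 2 (SE, adjusted p = 6.82e-08), the largest fall of the 10. It also fell with hairpin 1, by 0.37 ± 0.11 (adjusted p = 0.0103), where its libraries lay below all control libraries. With hairpin 3 the change was -0.13 ± 0.11 (adjusted p = 0.321), and the libraries overlapped the control.

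CDCA8 (Entrez 55143, chromosome 1, 37692418 to 37709719, plus strand) encodes borealin. Its control libraries had 84.7, 90.9 and 82.7 CPM, and those of hairpin 1 had 85.2, 85.9 and 81.3. Hairpin 2 libraries had 34.6, 30.1 and 32.8 CPM, and hairpin 3 libraries 104, 107 and 104. CDCA8 was therefore low with hairpin 2, above every control library with hairpin 3, and overlapping the control with hairpin 1. The log2 fold changes with hairpins 2 and 3 were -1.41 ± 0.07 (SE, adjusted p = 1.53e-08) and 0.29 ± 0.07 (adjusted p = 0.00472), and with hairpin 1 the change was -0.03 ± 0.07 (adjusted p = 0.678).

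INCENP (Entrez 3619, chromosome 11, 62123973 to 62153163, plus strand) encodes the scaffold that binds Aurora B at one end and survivin and borealin at the other. It read 153, 125 and 109 CPM in the control, 180.1, 188 and 184 with hairpin 1, 94.9, 96.1 and 95.4 with hairpin 2, and 209, 159.9 and 146 with hairpin 3. The gap between hairpin 2 and the control was narrow, since the highest hairpin 2 library (96.1) was close to the lowest control library (109). The log2 fold change with hairpin 2 was -0.43 ± 0.14 (SE, adjusted p = 0.0124), the smallest of the 10. INCENP rose by 0.51 ± 0.14 with hairpin 1 (adjusted p = 0.00647) and by 0.41 ± 0.14 with hairpin 3 (adjusted p = 0.0261), where the libraries overlapped the control. The size of the fall with hairpin 2 differed between settings that model transcript length. It was -1.14 and called with the length slope in the model, -0.26 and no longer called with length and GC offsets, and 0.15 and not called in limma on log2(TPM + 1), on a scale where the median of all tested genes moved to 0.33.

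SGO1 (Entrez 151648, chromosome 3, 20160593 to 20186292, minus strand) had the lowest level per length of the 10. It measured 32.9, 27.2 and 28.8 CPM in the control, 28.9, 29.3 and 28.6 with hairpin 1, 12.7, 14.7 and 14.9 with hairpin 2, and 37.3, 29.7 and 30.1 with hairpin 3. Only the hairpin 2 libraries were apart from the control. SGO1 fell by 1.07 ± 0.11 on the log2 scale with hairpin 2 (SE, adjusted p = 4.71e-06), while hairpins 1 and 3 gave -0.03 ± 0.11 (adjusted p = 0.794) and 0.13 ± 0.11 (adjusted p = 0.34). The antisense gene SGO1-AS1 overlaps it, and as no strand-marking step is given in the protocol, reads of the pair cannot be told apart. The same holds for MAD2L1 and AC108866.1.

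TTK (Entrez 7272, chromosome 6, 80003887 to 80042527, plus strand), the kinase at the top of the checkpoint, read 76.2, 63.9 and 57.9 CPM in the control and 73.5, 71.4 and 80.3 with hairpin 1. It read 32.6, 33.8 and 34.9 CPM with hairpin 2 and 103, 89.2 and 77.7 with hairpin 3. All hairpin 3 libraries were above all control libraries, though the lowest (77.7) was close to the highest control library (76.2), and hairpin 1 overlapped the control. The log2 fold changes were -0.97 ± 0.12 with hairpin 2 (SE, adjusted p = 1.79e-05), 0.45 ± 0.12 with hairpin 3 (adjusted p = 0.00826) and 0.18 ± 0.12 with hairpin 1 (adjusted p = 0.179).

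BUB1 (Entrez 699, chromosome 2, 110637698 to 110678114, minus strand) encodes a kinase that marks histone H2A at the centromere and so helps to bring in shugoshin. Its values were 146, 120.1 and 109.8 CPM in the control, 160.5, 155 and 153 with hairpin 1, 60.8, 62.7 and 62.8 with hairpin 2, and 186, 150.1 and 153 with hairpin 3. The hairpin 2 libraries were far below the control and the other 6 knockdown libraries were above it. BUB1 fell by 1.01 ± 0.11 on the log2 scale with hairpin 2 (SE, adjusted p = 6.04e-06), and it rose by 0.32 ± 0.11 with hairpin 1 (adjusted p = 0.0206) and 0.38 ± 0.11 with hairpin 3 (adjusted p = 0.0126).

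BUB1B (Entrez 701, chromosome 15, 40161023 to 40221136, plus strand) encodes BUBR1, part of the complex that inhibits the anaphase-promoting complex. It had 121, 97.3 and 92.2 CPM in the control libraries, 154, 157 and 145 with hairpin 1, 65.5, 64.0 and 66.7 with hairpin 2, and 166, 133 and 137 with hairpin 3. No group overlapped the control. The log2 fold change was -0.66 ± 0.11 with hairpin 2 (SE, adjusted p = 0.00018), 0.56 ± 0.11 with hairpin 1 (adjusted p = 0.0012) and 0.49 ± 0.11 with hairpin 3 (adjusted p = 0.00353). A readthrough gene, BUB1B-PAK6, overlaps it on the same strand and may share its reads, at 14.6 to 16.1 CPM in the control and 7.59 to 10.7 CPM with hairpin 2.

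BUB3 (Entrez 9184, chromosome 10, 123154277 to 123170467, plus strand) encodes the adaptor that carries BUB1 and BUBR1 to kinetochores. It measured 251, 244 and 236 CPM in the control, 262, 248 and 265 with hairpin 1, 155, 159 and 156 with hairpin 2, and 293, 277 and 276 with hairpin 3. It varied little between libraries of a line. The log2 fold change was -0.64 ± 0.06 with hairpin 2 (SE, adjusted p = 1.29e-06), 0.21 ± 0.06 with hairpin 3 (adjusted p = 0.00867) and 0.08 ± 0.06 with hairpin 1 (adjusted p = 0.206).

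MAD2L1 (Entrez 4085, chromosome 4, 120055608 to 120067074, minus strand) encodes the protein that is loaded onto CDC20. It read 141, 142 and 129.5 CPM in the control, 186, 178 and 188 with hairpin 1, 64.2, 70.0 and 68.1 with hairpin 2, and 211, 197 and 204 with hairpin 3. Every line stood clear of the control, with hairpin 2 below it and hairpins 1 and 3 above. The log2 fold change was -1.03 ± 0.06 with hairpin 2 (SE, adjusted p = 8.27e-08), 0.42 ± 0.06 with hairpin 1 (adjusted p = 0.000212) and 0.57 ± 0.06 with hairpin 3 (adjusted p = 2.58e-05), the last being the largest rise of the 10. In limma on log2(TPM + 1) the hairpin 2 falls of BUB1B and BUB3 were -0.21 and -0.08 and were no longer called, and the other checkpoint and shugoshin genes kept their calls.

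With hairpin 1, 4 of the 10 genes rose (INCENP, BUB1, BUB1B and MAD2L1), BIRC5 fell, and the other 5 did not pass the test. In this comparison 31.5% of all tested genes were called higher and 31.5% lower, so 4 risers and 1 faller in 10 were near or under the background. The libraries lay above all control libraries for 4 of the 10 genes, a separation seen for 35% of all tested genes. The median of the 10 was 0.13 on the log2 scale beside 0.01 over all tested genes. The calls differed between settings: when the length slope entered the model, the count was 2 higher and 2 lower, INCENP and BUB1 turned to -0.03 and -0.08, AURKB turned to 0.29, BIRC5 to 0.07 and TTK to -0.23, and BUB1B (0.16) lost its call. With length and GC offsets MAD2L1 turned to -0.21. The slope itself differed between these lines, so length and line cannot be fully told apart, and the part of length in the changes was not tested. The call of BUB1 was also lost without the second (0.29) or the third (0.23) control library or the first hairpin 1 library (0.30), and AURKB passed the test without the first control library (-0.40) or the first hairpin 3 library (-0.30).

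With hairpin 3, 7 of the 10 genes rose (INCENP, CDCA8, BUB1, BUB1B, BUB3, MAD2L1 and TTK) and none fell, while AURKB, BIRC5 and SGO1 did not pass the test. Of all tested genes 23.6% were called higher in this comparison and 24% lower. For 6 of the 10 genes the hairpin 3 libraries lay above all control libraries, against 22.4% of all tested genes. The median log2 fold change was 0.33 beside 0.01 over all tested genes, and the largest rise was 0.57. With length and GC offsets MAD2L1 (0.20) lost its call, and AURKB (0.27) gained one there and with the length slope in the model. A fit of only the control and hairpin 3 libraries left 3 calls, since INCENP (0.41), BUB1 (0.38), BUB3 (0.21) and TTK (0.45) no longer passed. Same-numbered control and hairpin 3 libraries deviated together. The number was then added as a block to that fit, an alternative chosen after the data were seen that leaves 2 residual degrees of freedom. With the block, 7 genes were called higher and BIRC5 (-0.13) lower. More of all tested genes were called there too, with 4487 of 12492 higher and 4436 lower. The main fit called 3036 of 12868 higher and 3086 lower. INCENP also lost its call without the second (0.39) or the third (0.30) control library or the first hairpin 3 library (0.24), BUB1 lost it without the second (0.35) or the third (0.29) control library, and BIRC5 was called lower without the first control library (-0.25). The 3 comparisons with the control share its libraries, so they are not independent of one another.

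**Figure D2:**
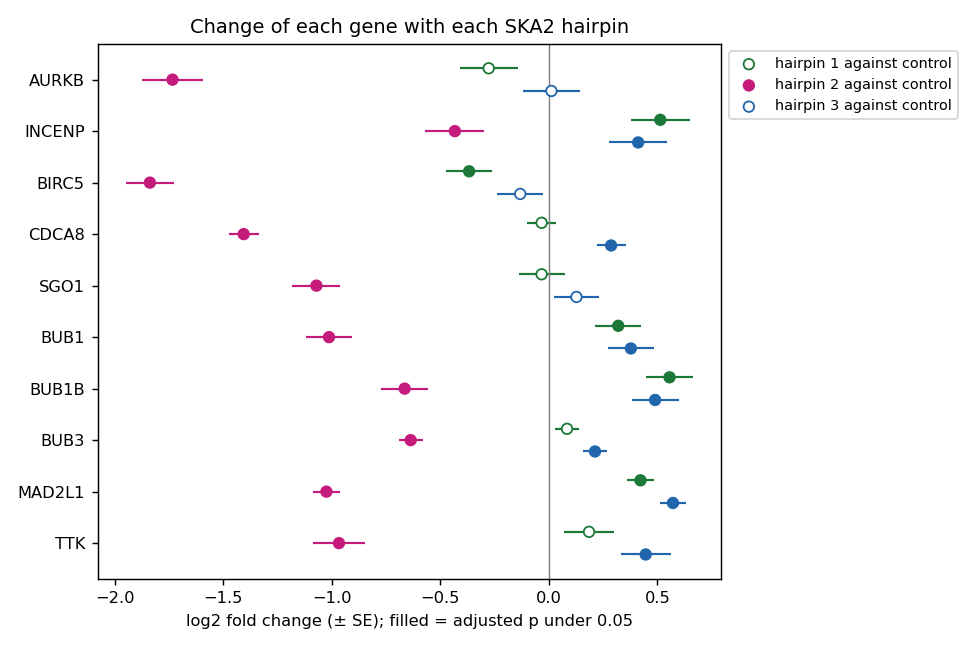
Log2 fold change against the control (horizontal axis) of each of the 10 genes with hairpins 1, 2 and 3; bars are SE and filled points passed the test at an adjusted p under 0.05. All 10 hairpin 2 points are filled and lie between -1.84 and -0.43. Hairpin 3 has 7 filled points, all above 0, and hairpin 1 has 5, of which BIRC5 (-0.37) lies below 0.

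Set against each other, the hairpins differed for every gene where hairpin 2 took part. All 10 genes were lower with hairpin 2 than with hairpin 1, by -0.72 ± 0.06 (SE) in BUB3 to -1.47 ± 0.11 in BIRC5 on the log2 scale (largest adjusted p = 0.000105), where 29.4% of all tested genes were lower. All 10 were higher with hairpin 3 than with hairpin 2, from 0.84 ± 0.14 in INCENP to 1.75 ± 0.14 in AURKB (largest adjusted p = 0.000214), where 33.4% of all tested genes were higher. Both comparisons use the hairpin 2 libraries. INCENP lost its call between hairpins 3 and 2 in limma on log2(TPM + 1) (0.47). Between hairpins 3 and 1, CDCA8 was the only gene of the 10 that passed, at 0.32 ± 0.07 (adjusted p = 0.0179), where 4.75% of all tested genes were called higher. That call was lost without any 1 of the hairpin 1 libraries (0.30 to 0.35) or without the second (0.31) or the third (0.33) hairpin 3 library, in a fit of only these groups (0.32) and in limma on log2(TPM + 1) (0.10). Other settings called more: 8 genes were higher with the length slope in the model, 4 with length and GC offsets and 3 with DESeq2. AURKB (0.44) and BIRC5 (0.33) passed without the first hairpin 3 library. These fits also called more of all tested genes higher than the 611 of the main fit. They called 1809, 1622 and 1073 of 12868 genes higher in that order, and 2536 of 13000 without that library. The remaining differences between hairpins 3 and 1 ran from -0.10 ± 0.13 for INCENP to 0.29 ± 0.13 for AURKB.

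Averaged over the 3 hairpins, 5 genes were lower than the control and none was higher. BIRC5 changed by -0.78 ± 0.08 (SE, adjusted p = 1.15e-05), AURKB by -0.67 ± 0.11, CDCA8 by -0.38 ± 0.05, SGO1 by -0.33 ± 0.09 and BUB3 by -0.11 ± 0.04 (adjusted p = 0.0397). INCENP, BUB1, BUB1B, MAD2L1 and TTK were between -0.11 and 0.16 and did not pass, and for none of the 10 did the 9 knockdown libraries lie on 1 side of the control. In this comparison 35.8% of all tested genes were lower and 33.7% higher. The count was 2 lower and 4 higher in limma on log2(TPM + 1), and 9 lower with the length slope in the model. The average covers lines that went different ways, and none of the 5 falls was called in a fit that took the 9 knockdown libraries as 1 group. BUB3 lost its call without the first or second control library, the first or second hairpin 1 library, or the second or the third hairpin 3 library (-0.12 to -0.09), and INCENP (0.30) and BUB1B (0.25) were called higher without the first control library.

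Within a line the 10 genes did not move together. In the first control library, against the mean of the other two, log2 CPM was lower for AURKB by -0.40 and BIRC5 by -0.37, near 0 for CDCA8 (-0.03), BUB3 (0.07) and MAD2L1 (0.06), and higher for INCENP (0.39), BUB1B (0.36), BUB1 (0.35), TTK (0.32) and SGO1 (0.23). The first hairpin 3 library showed the same signs, with AURKB at -0.46, BIRC5 at -0.26 and INCENP at 0.45. In the lines of hairpins 1 and 2 the same difference was small, from -0.22 for SGO1 with hairpin 2 to 0.14 for CDCA8 with hairpin 2. The libraries that differed were those whose length slope was above that of the others of their line, and the part of length in these differences was not tested.

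**Figure D3:**
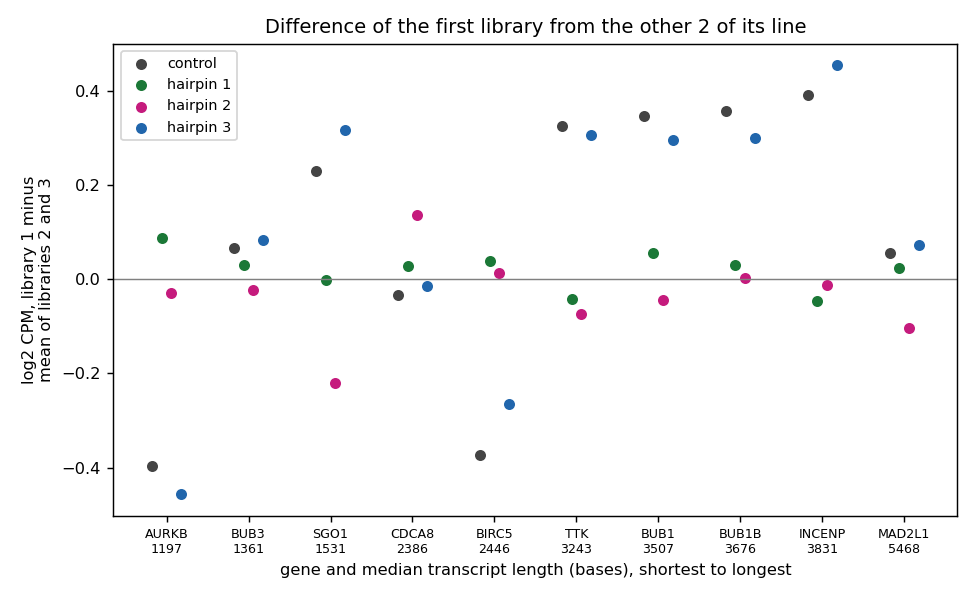
Difference in log2 CPM between the first library of a line and the mean of its other 2 (vertical axis) for each of the 10 genes, ordered by median transcript length in bases, in the 4 lines. In the control and hairpin 3 lines AURKB (-0.40 and -0.46) and BIRC5 (-0.37 and -0.26) lie below 0 and INCENP (0.39 and 0.45) above it, while hairpin 1 and 2 values lie between -0.22 and 0.14.

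Between genes, levels were compared in FPKM, which the authors scaled to transcript length. In the control line BUB3 was highest at 135 ± 10.2 FPKM (SD, n = 3), followed by AURKB (96.2 ± 12.9) and BIRC5 (92.0 ± 11.96), whose libraries overlapped. CDCA8 (39.9), BUB1 (34.6), BUB1B (29.4), MAD2L1 (26.6), INCENP (25.0) and TTK (23.5) formed a run in which each overlapped the next, and SGO1 was lowest at 12.8 ± 1.7. With hairpin 2 the first 3 places stayed the same, at 99.5 FPKM for BUB3, 30.4 for AURKB and 27.3 for BIRC5. INCENP moved from rank 8 to rank 4 (21.4 ± 0.31 FPKM) and CDCA8 from rank 4 to rank 7 (16.0 ± 1.1). No neighbours in the hairpin 2 order overlapped.

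In FPKM the passenger complex subunits changed by unequal amounts with hairpin 2. INCENP (21.19 to 21.74) lay within its control range (20.17 to 31.24). The FPKM of all genes totalled 504100 to 539517 in the hairpin 2 libraries and 600684 to 726871 in the control libraries. The part of these totals in the levels compared here was not tested. The summed level of the subunits was 232, 260.0 and 267 FPKM in the control libraries, 239 to 246 in the hairpin 1 line, 93.5 to 95.9 in that of hairpin 2 and 256 to 288 in that of hairpin 3. INCENP made up 13.4%, 9.1% and 7.6% of the sum in the control libraries and 22.1% to 22.7% with hairpin 2. In the lines of hairpins 1 and 3 its share was 16.1% to 17.4% and 10.2% to 17.9%, so hairpin 1 lay between control and hairpin 2 while hairpin 3 overlapped the control. AURKB outweighed INCENP by a ratio of 2.62 to 5.29 in the control libraries and 1.37 to 1.54 with hairpin 2. Among the checkpoint genes the ratio of BUB1 to BUB1B was 1.16 to 1.2 in the control, 0.961 to 1.03 in the hairpin 1 line, 0.904 to 0.954 in the hairpin 2 line and 1.09 in each hairpin 3 library. BUB3 exceeded BUB1 by 3.54 to 4.27 in the control libraries and 5.13 to 5.78 with hairpin 2. The median annotated transcript of INCENP (3831 bases) and of BUB1B (3676) is longer than that of AURKB (1197), BUB3 (1361) or BIRC5 (2446), and the part of length in these ratios was not tested.

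**Figure D4:**
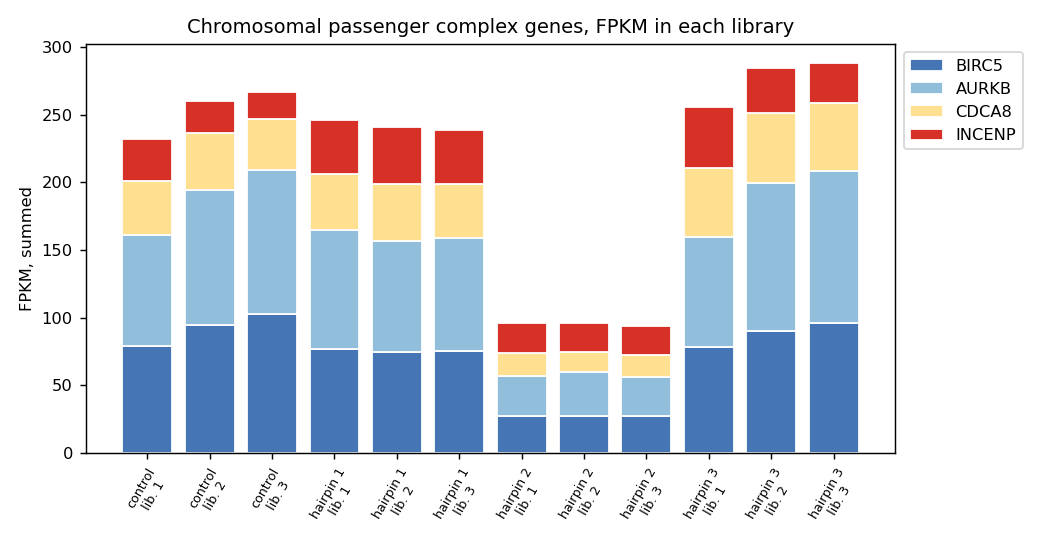
FPKM of AURKB, INCENP, BIRC5 and CDCA8 stacked to their sum (vertical axis, from 0) in each of the 12 libraries. The hairpin 2 columns reach 93.5 to 95.9 FPKM and the control columns 232 to 267, and INCENP makes up a larger part of the hairpin 2 columns.

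Over the 12 libraries BUB3 followed the mean of the other 9 genes most closely (Pearson r of log2 CPM 0.996) and INCENP least (r = 0.844), a description in which the libraries of a line share their source. The 5 genes most like the mean of the 10 among 12124 genes with at least 1 CPM were CDK8 and DLGAP5 (both r = 0.998), NUF2 (0.996), CDK1 (0.995) and NEK2 (0.995). NUF2 is a kinetochore subunit, CDK1 the mitotic kinase, NEK2 a centrosomal kinase, DLGAP5 a spindle protein and CDK8 a kinase of the Mediator complex. Their hairpin 2 log2 fold changes were -1.17 for CDK8, -1.64 for DLGAP5, -1.84 for NUF2, -1.42 for CDK1 and -1.66 for NEK2. With hairpin 3 they were 0.31, 0.50, 0.34, 0.52 and 0.53 in the same order.

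Other checkpoint genes, 11 of 12 of which were tested, went the same way with hairpin 2: 10 fell, none rose and the median was -0.48, where 37.8% of all tested genes were lower. With hairpin 1, 5 rose and 3 fell, the latter near the 31.5% of all tested genes called in each direction. With hairpin 3, 5 rose and 1 fell, against 23.6% and 24% of all tested genes. ZWINT, a linker of the outer kinetochore, fell by 1.45 with hairpin 2, TRIP13, which remodels MAD2, by 1.16 and SPDL1, which brings dynein to kinetochores, by 0.29. MAD2L1BP, the adaptor with which TRIP13 works, changed by -0.68 with hairpin 1 and -0.58 with hairpin 2. SPDL1 turned sign with hairpin 2 on the TPM scale (0.09). MAD2L1BP turned sign with hairpin 2 with the length slope in the model (0.15) and lost its call on the TPM scale (-0.13), and its hairpin 1 call was lost with the length slope (-0.11).

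Of 15 tested partners of the Aurora kinases and of shugoshin, 10 fell and 4 rose with hairpin 2 (median -0.68), 6 rose and 3 fell with hairpin 1, and 8 rose and 1 fell with hairpin 3. The 4 rises with hairpin 2 were under the 36.6% of all tested genes called higher there, and the hairpin 1 counts were near or under its 31.5% each way. Of all tested genes 37.8% were called lower with hairpin 2, and 23.6% higher and 24% lower with hairpin 3. KIF2C, the microtubule depolymerase that Aurora B regulates, fell by 1.97 with hairpin 2, by 0.53 with hairpin 1 and by 0.36 with hairpin 3, and its hairpin 1 call was lost on the TPM scale (-0.15). TPX2, the activator of Aurora A, fell by 1.45 with hairpin 2. Among the B56 subunits of the phosphatase PP2A that shugoshin binds, PPP2R5A rose by 0.64 and PPP2R5E by 0.90 with hairpin 2. AURKC, given above, and the B56 subunit PPP2R5C (0.20) were the other 2 of the 4 that rose. PPP2R5D, also a B56 subunit, was at -0.04 and did not pass, and the scaffold PPP2R1A fell by 0.29. PPP2R5C, PPP2R5D and PPP2R1A were named after their values were seen.

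The anaphase-promoting complex, the target of the checkpoint, had 20 tested genes with its partners. With hairpin 2, 13 fell and 1 rose (median -0.36, which turned to 0.05 in limma on log2(TPM + 1)). With hairpin 1, 10 fell and 4 rose, and with hairpin 3, 3 fell and 5 rose. Of all tested genes 37.8% were lower with hairpin 2 and 31.5% with hairpin 1, and the hairpin 3 counts were near or under the 24% lower and 23.6% higher of all tested genes. Its ubiquitin-conjugating enzymes UBE2C and UBE2S fell by 1.96 and 1.70 with hairpin 2, and FBXO5, an inhibitor of the complex, by 1.18. The subunit ANAPC13 fell by 0.62, 1.09 and 0.63 with hairpins 1, 2 and 3.

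Genes of cohesin, the complex that SGO1 protects at centromeres, and of cohesin regulators went against the 10 genes in the hairpin 2 line. Of 13 tested, 8 rose and 2 fell with hairpin 2 (median 0.61), 11 rose and 1 fell with hairpin 1 (median 0.67), and 8 rose and 1 fell with hairpin 3 (median 0.40). Of all tested genes 36.6%, 31.5% and 23.6% were called higher with hairpins 2, 1 and 3, and 37.8%, 31.5% and 24% lower. ESCO1, which acetylates cohesin, rose by 2.13 with hairpin 2, the loader NIPBL by 1.62 and the regulator PDS5B by 1.07. CDCA5 (sororin), which guards cohesin in G2, fell by 1.58. When the length slope entered the model, the hairpin 2 median turned to -0.24, with 3 higher and 7 lower, and PDS5B (0.02) lost its call. With hairpin 1, ESCO1 (0.67) and NIPBL (0.90) went to 0.15 and 0.01 there and lost their calls, while PDS5B and CDCA5 kept theirs. In a fit of only the control and hairpin 3 libraries, ESCO1 (0.41), NIPBL (0.70), PDS5B (0.78) and CDCA5 (-0.34) were no longer called.

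Regulators of late cell cycle transcription included 16 tested genes, of which 10 fell and 2 rose with hairpin 2 (median -0.46), 7 fell and 6 rose with hairpin 1, and 5 fell and 5 rose with hairpin 3. The counts with hairpins 1 and 3 were near the shares of all tested genes, 31.5% each way and 24% lower with 23.6% higher, while 37.8% were lower with hairpin 2. FOXM1, which drives G2 and mitosis genes, fell by 1.48 with hairpin 2, by 0.51 with hairpin 1 and by 0.61 with hairpin 3, and its hairpin 1 call was lost on the TPM scale (-0.06). MYBL2, a MuvB partner, fell by 1.17 and E2F1 by 1.60 with hairpin 2. CDKN1A, the p21 inhibitor of cyclin-dependent kinases, did not rise: it fell by 1.48 with hairpin 1, 0.33 with hairpin 2 and 0.78 with hairpin 3, and with hairpin 2 its sign turned to 0.11 on the TPM scale and 0.04 with length and GC offsets, and it no longer passed with the length slope in the model (-0.08). Of 11 tested proliferation markers, 10 fell with hairpin 2 and none rose (median -1.34), while with hairpin 1, 6 rose and 3 fell and with hairpin 3, 7 rose and 1 fell, beside the same shares of all tested genes. TYMS, CDC25C, CCNB2 and PCNA fell by 1.83, 1.90, 1.43 and 1.21 with hairpin 2. The marker that did not pass with hairpin 2 was MKI67, at -0.15 ± 0.14 (SE, adjusted p = 0.349), named after its values were seen.

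**Figure D5:**
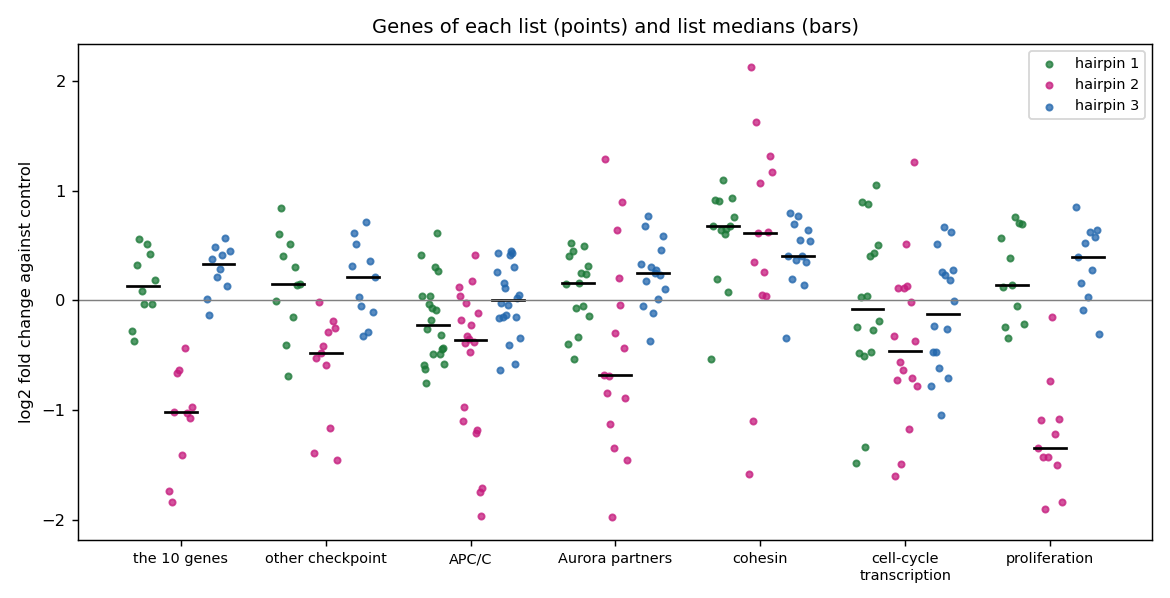
Log2 fold change against the control of the members of each list of related genes with hairpins 1, 2 and 3; points are genes and bars are list medians. The hairpin 2 medians run from -1.34 for proliferation markers and -1.02 for the 10 genes to 0.61 for cohesin.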

How the data were processed

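Bulk RNA-seq of 12 SNU638 libraries was analysed, with groups and replicate numbers taken from the sample titles. The tools HISAT, Bowtie2, RSEM and DESeq2 and build GRCh38.p13 are named, without roles, per the submitters' processing notes. The deposited table of 17303 genes gives expected counts, FPKM (scaled by the authors to length and reads) and TPM (scaled by the authors to one total per library), per the file headers, and its 15 columns of group averages were left out. Positions came from GENCODE v29 on GRCh38 (17084 identifiers matched).

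Expected counts were rounded and tested with edgeR 4.0.16 (R 4.3.3) by its quasi-likelihood test, with TMM scaling, the tool's expression filter, 1 factor for the line, 8 residual degrees of freedom and a common coefficient of variation of 0.111. Two-sided tests were used, and a call needed a p, adjusted by Benjamini-Hochberg over all 12868 tested genes, under 0.05. SE is the absolute log2 fold change divided by the square root of the F statistic, and CPM is after TMM except for summed cell type markers, which used library totals. For the mean of the hairpins, SE and p do not include how far the hairpins differ. Alternatives were DESeq2 1.42.0, RLE scaling, no filter, limma 3.58.1 on log2(TPM + 1), only the groups compared, a replicate block, length and GC corrections, and leaving out each library. The 10 genes, SKA2, up to 4 members of each list with the smallest adjusted p in the mean contrast, and the 5 most alike genes are named. The members and lists were chosen with earlier results of these data known. Same-numbered control and hairpin 3 libraries deviated together (3 of 3 pairs, r from 0.17 to 0.728), unlike those of the other lines, and a fit of these 2 groups with the number as a block was added after the data were seen. The fit was also run on simulated counts with known changes and no trend on transcript length. That run therefore does not cover the length trends of these libraries. Depth was 1.47e+07 to 1.67e+07 counts per library.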

Additional observations from a re-analysis of the deposited data

Results flagged for a closer look

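The effect of hairpin 2 differed from those of hairpins 1 and 3 for all 10 genes, by edgeR's test of the difference between hairpins itself. Each difference given here passed at an adjusted p under 0.05 in the main fit. The log2 difference of hairpin 2 from hairpin 1 was -1.46 for AURKB, -0.95 for INCENP, -1.47 for BIRC5, -1.37 for CDCA8 and -1.04 for SGO1. It was -1.33 for BUB1, -1.22 for BUB1B, -0.72 for BUB3, -1.45 for MAD2L1 and -1.15 for TTK, so all 10 genes were lower with hairpin 2.

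The difference of hairpin 3 from hairpin 2 was 1.75 for AURKB, 0.84 for INCENP, 1.71 for BIRC5, 1.69 for CDCA8 and 1.2 for SGO1. It was 1.39 for BUB1, 1.15 for BUB1B, 0.85 for BUB3, 1.60 for MAD2L1 and 1.41 for TTK. Both sets rest on the same 3 hairpin 2 libraries. Between hairpins 3 and 1, CDCA8 differed by 0.32 and the other 9 genes did not pass. The call of CDCA8 was lost without any 1 of the hairpin 1 libraries, in a fit of only these groups and in limma on log2(TPM + 1).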

How the results depend on the processing

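Over 1410 values of the 10 genes under alternatives, 1318 kept their side of the threshold and were not counted as reversed, 39 lost a call, 33 gained one and 20 reversed. A change of sign was counted as reversed only where the main fit or the alternative passed the test. Sign changes with neither called stayed among the 1318, such as AURKB with hairpin 1 (-0.28 in the main fit, 0.11 on TPM). The fall of all 10 genes with hairpin 2 was called in each fit that left out a library, and under every alternative all 10 lay below the median of all genes. Limma on log2(TPM + 1) moved the median of all tested genes to 0.29, 0.33 and 0.12 with hairpins 1, 2 and 3, to 0.25 for their mean, and to -0.19 and -0.22 for hairpin 3 against hairpins 1 and 2. The share of calls that were higher went from 50% to 78.9%, 49.2% to 71.7%, 49.6% to 60.9%, 48.5% to 74.3%, 50.2% to 15.4% and 51.1% to 30.3% in the same order. The cause of the changes below was not tested.

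With hairpin 1 that TPM fit called 7 of the 10 genes higher and 0 lower, the length covariate 2 higher and 2 lower, and length and GC offsets 2 lower; leaving out a library gave 1 to 2 lower. The number of all genes called went from 8114 to 5211 with the length covariate. With hairpin 3, only the groups compared gave 3 higher members and 3458 genes in place of 6122, and leaving out a library gave 0 to 1 lower. For the mean, lower and higher members were 2 and 4 on TPM and 8 and 1 with the offsets, 9 were lower with the length covariate, 0 were lower with the 9 knockdown libraries as 1 group (4926 genes in place of 8947), and leaving out a library gave 0 to 2 higher. For hairpin 3 against hairpin 1, where 1216 genes were called, higher members and genes were 3 and 1977 with DESeq2, 0 on TPM, 0 and 336 with only the groups compared, 8 and 3503 with the length covariate, 4 and 2934 with the offsets, and 0 to 3 and 239 to 5267 when a library was left out.

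Reversed on TPM were, with hairpin 1, BIRC5 (0.0244), CDCA8 (0.34), TRIP13 (0.25), TPX2 (0.21), TYMS (0.17), CCNB2 (0.14) and PCNA (0.33), with hairpin 2, INCENP (0.15), SPDL1 (0.0929) and CDKN1A (0.11), and for the mean, SGO1 (0.0023), BUB3 (0.34) and MAD2L1 (0.31). Reversed with the length covariate were, with hairpin 1, AURKB (0.29), INCENP (-0.0347), BIRC5 (0.0671), BUB1 (-0.0775), TTK (-0.23), UBE2C (0.0256), UBE2S (0.11), E2F1 (0.20), CCNB2 (0.0903) and PCNA (0.20), with hairpin 2, MAD2L1BP (0.15), for the mean, INCENP (-0.34) and BUB1B (-0.24), and for hairpin 3 against hairpin 1, INCENP (0.18) and BUB1B (0.14). Reversed with the offsets were, with hairpin 1, AURKB (0.18), BUB1 (-0.0205), MAD2L1 (-0.21) and TTK (-0.23), with hairpin 2, CDKN1A (0.0382), and for the mean, BUB1B (-0.20).

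Of 18 same-numbered pairs, 3 had deviations correlated above 0.1, all between control and hairpin 3 (r from 0.17 to 0.728). The numbers did not fully pair these libraries. The second control library correlated more with the third hairpin 3 library (0.23) than with the second (0.17). The third control library correlated with the second hairpin 3 library at 0.391. In the other 5 pairs of lines no same-numbered pair was above 0.1, and 5 of 12 libraries correlated best with their own number. With the replicate number as a block in the fit of all 12 libraries, the mean of BUB3 (-0.11) lost its call and no other call of the 10 genes changed. With the block in a fit of control and hairpin 3 alone, chosen after the data were seen, 7 members were called higher and 1 lower, with 8923 genes called.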
